A study of Mus musculus with 9 samples.

Results

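CD4 single-positive (CD4SP) thymocytes were set against polyclonal CD8 single-positive (CD8SP) thymocytes in mice with and without Brd1, using 4 of the 9 arrays of the series: 1 CD4SP and 1 CD8SP array per genotype. The arrays were chosen by their labels and not by any measured value, and the CD4SP cells that lacked surface TCRβ were left out. Control mice were Brd1+/+ with Tie2-Cre and conditional knockout (CKO) mice were Brd1flox/flox with Tie2-Cre, so that every group carried the recombinase. All 4 samples came from C57BL/6 mice aged 8 weeks. The series also holds double-positive (DP) thymocytes of both genotypes at 8 weeks, and CD8SP thymocytes of both genotypes at 14 weeks from OT-I mice (spelled OT-l in the labels), whose T cells carry one transgenic T cell receptor (TCR). The values of these 4 arrays are given beside the results where they add a second reading. Each group is 1 array, and nothing in the labels says how many mice gave the RNA. Tie2-Cre acts in endothelial and blood-forming cells, so in the CKO the deletion is not limited to T cells.

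In the thymus, DP cells carry both co-receptors and audition their TCR against peptide on major histocompatibility complex (MHC) molecules. Cells whose TCR engages MHC class II keep Cd4, switch on Zbtb7b (ThPOK) and become helper-type CD4SP cells, while cells selected on MHC class I shut off Cd4, switch on Runx3 and become cytotoxic-type CD8SP cells. Brd1 is a scaffold subunit of histone acetyltransferase complexes. The comparison addresses which genes separate the 2 lineages, and whether the separation is as wide without Brd1.

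All levels below are log2 signals relative to the 75th percentile of the signal of the same array, and all differences are CD4SP minus CD8SP on that log2 scale, so a positive difference means a higher signal in CD4SP cells. Between 21668 probes (CD8SP control) and 25204 probes (CD4SP CKO) were well above background per array. The CD4SP control, CD8SP control and CD4SP CKO arrays lay on slide 1 and the CD8SP CKO array on slide 2. The control difference was therefore taken within a slide and the CKO difference across slides, and slide and genotype cannot be told apart where CD8SP CKO is set against CD8SP control cells. The CD4SP arrays of both genotypes share slide 1, so a change that lies in the CD4SP cells does not cross slides. With 1 array per group that change has no test, and it is given as a description throughout. In bulk samples, fewer cells of a type and less RNA per cell cannot be told apart.

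The co-receptors went with the labels on all 4 arrays. Cd4, the MHC class II co-receptor, had a level of 6.54 in CD4SP control and 6.38 in CD4SP CKO cells, against 3.50 and 3.28 in the CD8SP arrays. Cd8a, one chain of the MHC class I co-receptor, stood at -1.23 and -2.11 in CD4SP cells and at 4.60 and 4.70 in CD8SP cells of control and CKO mice. Cd8b1, the other chain, was at 1.67 and 0.54 in CD4SP cells and at 5.64 and 5.73 in CD8SP cells. In each case the arrays of a population lay nearer to each other than to the other population, with no overlap. Cd4 was higher in CD4SP cells by 3.04 in control and 3.10 in CKO mice (limma adjusted p = 0.0292), and Cd8a differed by -5.82 and -6.81 (limma adjusted p = 0.0197). Cd8b1 differed by -3.97 and -5.19 (limma adjusted p = 0.0282). Cd8b1 was further apart in the CKO pair, with a lower level in CD4SP CKO than in CD4SP control cells and like levels in CD8SP cells. For Cd8a this held on the chosen probe, while its other probe differed by -5.67 and -5.84, with CD4SP levels of -1.46 and -1.61. Brd1 itself was measured by 1 probe, at -1.09 and -0.98 in CD4SP and -1.37 and -0.73 in CD8SP cells of control and CKO mice. It was not lower in the CKO in either population, and where its probe lies relative to the deleted part is not given in the sources used here, so this probe does not check the genotype.

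**Figure D1:**
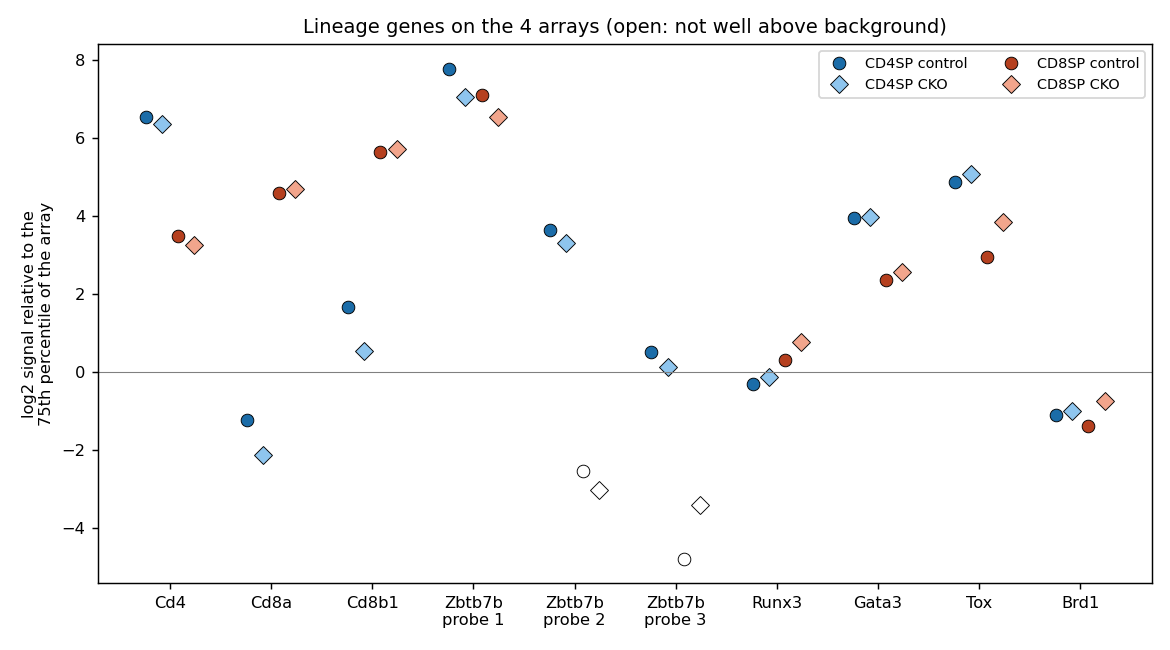
Level of lineage genes on the 4 arrays, as log2 signal relative to the 75th percentile of each array, with 1 point per array and open symbols for arrays on which the probe was not well above background. Cd4, Cd8a and Cd8b1 separate the populations in both genotypes, and of the 3 Zbtb7b probes only the first is above background in CD8SP cells.

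Among the transcription factors of the lineage choice, the reading for Zbtb7b depended on the probe. Its brightest probe, which stands for the gene in the counts below, gave 7.79 in CD4SP control, 7.12 in CD8SP control, 7.06 in CD4SP CKO and 6.55 in CD8SP CKO cells, a difference of 0.67 and 0.51 (limma adjusted p = 0.457). The same probe was also bright in DP cells, at 6.30 and 6.54. The second probe was well above background in both CD4SP arrays, at 3.66 and 3.32, and not well above background in CD8SP cells, which makes CD4SP cells at least 73.5-fold higher in control and at least 81-fold higher in CKO mice. The third probe was also above background in the CD4SP arrays only (0.53 and 0.12), for at least 8.83-fold and at least 11.5-fold. Both dimmer probes were low in DP cells too, at -3.65 and -3.39 for the second and -4.73 and -5.26 for the third. Thus 2 of the 3 probes separated CD4SP from CD8SP cells in both genotypes, and on the brightest the populations were less than 2-fold apart. With the mean of its 3 probes in place of the brightest, the mean difference of Zbtb7b was 3.76. Limma called the gene in 1 of 17 alternative settings. Runx3, the factor of the CD8 lineage, was at -0.31 and -0.13 in CD4SP cells and at 0.32 and 0.79 in CD8SP cells. Its difference of -0.63 and -0.92 had the same sign in both genotypes and did not pass the test (limma adjusted p = 0.352), and its dimmer probe differed by -0.10 and -0.44. In OT-I CD8SP cells Runx3 reached 0.87 in control and 1.73 in CKO mice, and in DP cells it stood at -2.46 and -1.84.

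Gata3 and Tox, which act before and together with Zbtb7b on the way to the CD4 fate, were higher in CD4SP cells of both genotypes. Gata3 had levels of 3.95 and 3.98 in CD4SP and 2.36 and 2.58 in CD8SP cells of control and CKO mice, a difference of 1.59 and 1.41 (limma adjusted p = 0.318). In OT-I CD8SP cells, Gata3 was at 3.90 in control and 2.54 in CKO mice, so that the control OT-I array was as high as the CD4SP arrays. Tox was at 4.89 and 5.07 in CD4SP cells and at 2.96 and 3.86 in CD8SP cells, and its difference was 1.94 in control and 1.22 in CKO mice (limma adjusted p = 0.168). A list of 22 factors of lineage choice and T cell identity, which does not hold Gata3 and Tox, had 21 compared. Of these 21, 4 were at least 2-fold higher in CD4SP cells in both genotypes and 0 in CD8SP cells. Over all genes compared the shares were 2.91% and 4.48%. Limma called 0 of the 21 (6 had an unadjusted p below 0.05). The 4 were Bach2, Runx1, Satb1 and Ets1. Satb1, a chromatin organiser of thymocytes, differed by 1.45 and 1.29, and Runx1, which silences Cd4 at the double-negative stage, by 1.66 and 1.11. Myb, which DP cells need, was 2.32 in CD4SP and 5.02 in CD8SP control cells, and 3.95 and 4.55 in the CKO, so its difference went from -2.70 to -0.61.

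RefSeq (build GRCm38.p6) lists starts for Cd8a, Runx3 and Zbtb7b, and the windows from 250 bases before to 50 after a start are shown for 3 of them because these genes are the co-receptor and the factors that set it. Capitals mark the core binding motif of RUNX proteins, TGTGGT, or its reverse complement ACCACA, searched on both strands. The window of Cd8a is at chr6:71373177-71373476 on the plus strand, that of the upstream of 2 Runx3 starts at chr4:135120395-135120694 on the plus strand, and that of the downstream of 2 Zbtb7b starts at chr3:89387622-89387921 on the minus strand.
Cd8a: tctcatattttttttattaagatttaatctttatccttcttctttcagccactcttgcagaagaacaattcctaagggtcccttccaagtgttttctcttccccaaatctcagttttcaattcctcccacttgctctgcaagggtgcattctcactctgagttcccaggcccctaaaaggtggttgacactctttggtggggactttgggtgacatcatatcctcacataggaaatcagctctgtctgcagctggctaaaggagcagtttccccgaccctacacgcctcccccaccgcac
Runx3: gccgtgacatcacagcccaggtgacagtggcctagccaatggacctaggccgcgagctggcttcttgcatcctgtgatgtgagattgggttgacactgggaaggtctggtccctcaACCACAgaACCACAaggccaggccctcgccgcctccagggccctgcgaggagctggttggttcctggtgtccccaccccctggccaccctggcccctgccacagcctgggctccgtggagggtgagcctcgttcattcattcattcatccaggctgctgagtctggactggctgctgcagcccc
Zbtb7b: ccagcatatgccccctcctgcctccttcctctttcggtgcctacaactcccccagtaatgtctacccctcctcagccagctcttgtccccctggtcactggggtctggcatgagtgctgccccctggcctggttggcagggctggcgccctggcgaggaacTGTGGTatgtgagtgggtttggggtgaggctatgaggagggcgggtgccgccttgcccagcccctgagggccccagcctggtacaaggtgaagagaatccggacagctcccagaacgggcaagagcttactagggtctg
The Runx3 window holds 2 matches, the Zbtb7b window 1 and the Cd8a window 0. The other Runx3 start and the other Zbtb7b start have 0 matches. The motif is in 16.8% of all 32851 promoter windows given by RefSeq. Taking any start of a gene, it was present for 15.4% of 9293 named genes compared, 16% of 225 genes past 2-fold in CD4SP cells in both genotypes and 17.5% of 543 past 2-fold in CD8SP cells in both. The gene sets of either lineage were thus near the share of all genes compared, and a match in these windows describes letters only.

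Across all genes, CD4SP and CD8SP cells differed more in control than in CKO mice. Of 18515 genes well above background on at least 2 of the 4 arrays (11529 with a gene name), 2017 (10.9%) were at least 2-fold higher in CD4SP and 2678 (14.5%) at least 2-fold higher in CD8SP control cells. In the CKO pair the counts were 1006 (5.43%) and 1220 (6.59%). The standard deviation of the difference over these genes was 1.07 in control and 0.82 in CKO mice, with medians of -0.08 and -0.05. With another background correction, normexp, it was 0.68 and 0.49. The control arrays were dimmer, with a 75th percentile intensity of 87.44 (CD4SP) and 90.73 (CD8SP) against 140.4 and 118.2 in the CKO. Whether this has a part in the wider control difference was not tested. Past 2-fold in the same direction in both genotypes were 539 genes higher in CD4SP cells (2.91%) and 829 higher in CD8SP cells (4.48%), of which 298 and 689 have names. A further 3246 genes (17.5%) passed 2-fold in control mice only and 777 (4.2%) in CKO mice only, and 81 (0.437%) passed it in opposite directions. With the 75th percentile taken over detected probes, 55.4% of the genes past 2-fold in both were higher in CD4SP cells, against 39.4% here, since that scaling moved the median control difference to 0.22. The 4 arrays were separate hybridisations, so the differences of the 2 genotypes share no array.

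**Figure D2:**
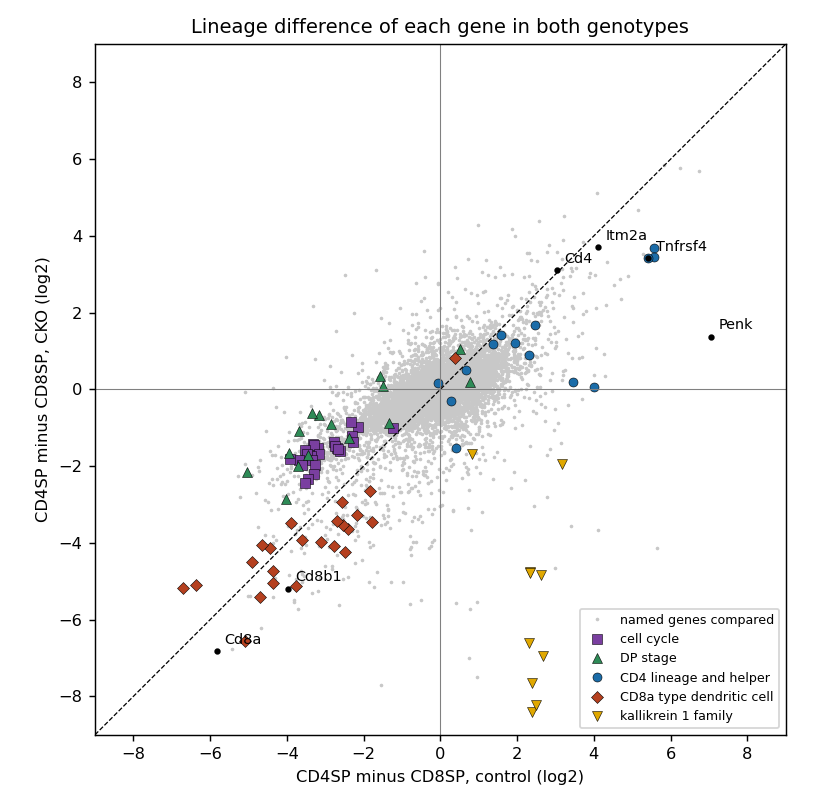
CD4SP minus CD8SP difference (log2) of 11529 named genes in control (x axis) and CKO mice (y axis), 1 point per gene, with 4 gene lists and the kallikrein 1 family in colour and the line of equal differences dashed. Cell cycle and DP stage genes lie above the line on the left, with smaller differences in the CKO, and the kallikreins are positive in control and negative in CKO mice.

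Tested over all 9 arrays with population and genotype as terms, 79 of 20284 genes differed between CD4SP and CD8SP cells (0.389%, limma, Benjamini-Hochberg adjusted p below 0.05). Higher in CD4SP cells were 26 genes (0.128%, 23 with names) and higher in CD8SP cells 53 (0.261%, 49 with names), and 2691 genes had an unadjusted p below 0.05. All 79 called genes kept their direction in every fit that left out 1 of the 4 arrays, but limma called 0 without the CD4SP control, the CD8SP control, the CD4SP CKO or the CD8SP CKO array, and 0 with slide as a block. The slide block is the same fit as leaving out the CD8SP CKO array, because OT-I cells have a population term of their own. It is thus no separate adjustment for slide. The 79 genes were picked on these same arrays and had mean differences of at least 2.21, so a kept direction was largely set by that choice. The fit takes its error in part from the change of the difference between genotypes, and the p-values measure only the spread between these arrays. Of the 79 called genes, the difference shrank by at least 2-fold in the CKO for 6 and grew for 16. Because the change enters the error of the fit, calls favour genes that changed little. Among all genes with a mean difference past 2-fold, shrinking was the more common. It held for 32.4% of those higher in CD4SP and 44.4% of those higher in CD8SP cells, against 7.18% and 12.1% that grew.

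Called higher in CD4SP cells, besides Cd4, were several genes of surface and secreted proteins. Itm2a, a membrane protein induced at positive selection, was at 9.17 in CD4SP control, 5.06 in CD8SP control, 8.16 in CD4SP CKO and 4.45 in CD8SP CKO cells. Its differences of 4.11 and 3.71 left no overlap between populations (limma adjusted p = 0.0197). Tnfrsf4, the OX40 costimulatory receptor of helper and regulatory T cells, was at 7.20 and 6.45 in CD4SP and at 1.78 and 3.04 in CD8SP cells of control and CKO mice. The OX40 difference was 5.42 in control and 3.42 in CKO mice (limma adjusted p = 0.0405), the smaller value going with a higher level in CD8SP CKO cells. Tnfsf11, the cytokine RANKL by which CD4SP cells drive medullary epithelium, was at 1.74 and 1.84 in CD4SP and at -2.14 and -1.10 in CD8SP cells (differences 3.87 and 2.94, limma adjusted p = 0.0292). Adam15, a membrane protease, differed by 3.38 and 2.95 (limma adjusted p = 0.0292). Ptgir, the prostacyclin receptor, was at 3.18 and 2.33 in CD4SP cells and not well above background in CD8SP cells, at least 53.3-fold higher over both genotypes (limma adjusted p = 0.0197). In OT-I CD8SP cells, Ptgir stood at 0.11 and 0.44.

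The CD4 lineage and helper list had 14 of 15 genes compared. Cd40lg, the ligand by which helper cells license B cells, was not well above background on any of the 4 arrays. In control mice 10 of the 14 were at least 2-fold higher in CD4SP cells and in the CKO 7, the same 7 in both genotypes. Shares of all genes compared were 10.9% in control, 5.43% in the CKO and 2.91% in both. The list's median difference was 2.13 in control and 1.04 in CKO mice, and 13 of 14 members had a smaller CD4SP excess in the CKO. Limma called 1 of them, Tnfrsf4. Ccr4, a chemokine receptor that guides CD4SP cells to the medulla, was at 1.99 in CD4SP control, 1.15 in CD4SP CKO and -2.28 in CD8SP CKO cells, and not well above background in CD8SP control cells. That is at least 24.4-fold in control mice and a difference of 3.44 in the CKO (limma adjusted p = 0.0587). Against OT-I CD8SP cells, by contrast, CD4SP cells were higher in Ccr4 by only 0.27 in control and 0.57 in CKO mice. St8sia6, a sialyltransferase, was above background in CD4SP cells only, at 1.00 and -0.97, for at least 12.2-fold in control and at least 7.18-fold in CKO mice (limma adjusted p = 0.0513). Icos, a costimulatory receptor, differed by 2.48 and 1.67. Cxcr5, the receptor of follicular helper cells, had the largest change of the difference on the list and was singled out for it after its values were seen. It was at -0.55 in CD4SP control cells and not well above background in CD8SP control cells, and at -0.37 and -0.43 in the CKO, where the populations no longer stood apart.

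Genes that report TCR signalling were higher in CD4SP cells of both genotypes. Of 20 compared, from a list of 22, 10 were at least 2-fold higher in CD4SP cells in both genotypes, 0 in CD8SP cells, and the median difference was 1.68 in control and 1.02 in CKO mice. Over all genes compared, 2.91% passed 2-fold in this way. Nr4a1, an immediate early gene whose level follows TCR signal strength, was at 6.88 and 6.37 in CD4SP and at 4.24 and 4.35 in CD8SP cells, a difference of 2.63 and 2.02 (limma adjusted p = 0.148). Irf4, a factor induced by TCR signals, differed by 2.81 and 1.92, and Dusp5, a phosphatase that damps ERK, was at least 5.14-fold higher in CD4SP control cells and differed by 1.96 in the CKO. Only Itm2a of this list was called. Cd5, a negative regulator of TCR signals whose level also follows them, was at 8.29 and 8.14 in CD4SP and at 6.31 and 6.84 in CD8SP cells. Against OT-I CD8SP cells, Cd5 was higher in CD4SP cells by only 0.35 in control and 0.34 in CKO mice. In OT-I CD8SP cells, whose receptor is fixed, Nr4a1 was at 4.29 and 5.39, and the list's median difference from CD4SP cells was 1.26 in control and 0.58 in CKO mice. Genes of the TCR complex and its proximal kinases differed little, with medians of 0.48 and 0.15 over 21 genes. Cd28, the main costimulatory receptor, was the only one of these past 2-fold in both genotypes, at 6.34 and 6.08 in CD4SP and 4.26 and 4.20 in CD8SP cells (limma adjusted p = 0.0807).

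Regulatory T cell genes were also higher in CD4SP cells, more so in control mice. Foxp3, the factor that defines these cells, was at 0.50 and 0.82 in CD4SP and at -0.71 and -0.49 in CD8SP cells of control and CKO mice (differences 1.21 and 1.30, limma adjusted p = 0.28). Of 10 genes compared, from a list of 12, 4 were at least 2-fold higher in CD4SP cells in both genotypes and 1, Nrp1, in CD8SP cells. For all genes compared these shares were 2.91% and 4.48%. The list's median difference was 1.99 in control and 0.57 in CKO mice. Lrrc32, which holds latent TGF-β on regulatory T cells, differed by 3.40 and 3.17, with levels of 1.86 and 1.18 in CD4SP and -1.54 and -1.98 in CD8SP cells. Gpr83, a receptor marking regulatory T cells, was called (limma adjusted p = 0.0452), at least 3.45-fold higher over both genotypes with the CD8SP arrays not well above background. Il2ra, the high-affinity interleukin 2 receptor chain, was at 1.81 and 1.41 in CD4SP cells, at -0.71 in CD8SP CKO cells and not well above background in CD8SP control cells. Whether a difference in the share of regulatory T cells has a part in the CD4SP-high genes was not tested.

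A few receptors for chemokines and cytokines were higher in CD4SP cells of both genotypes. Ccr8, another receptor of medullary and regulatory T cells, was at 1.62 and 0.68 in CD4SP and at -1.82 and -2.40 in CD8SP cells (limma adjusted p = 0.0546). Ccr10 was above background in CD4SP cells only, at -0.17 and -0.81, at least 6.58-fold higher over both genotypes. Of 13 chemokine receptors compared, 3 were at least 2-fold higher in CD4SP cells in both genotypes, against 2.91% of all genes compared. Their median difference was 1.24 in control and -0.26 in CKO mice. In the CKO, 5 of the 13 were higher in CD4SP cells and 3 were at least 2-fold higher in CD8SP cells (6.59% of all genes compared). Of 24 cytokine receptor and signalling genes compared, from a list of 25, 23 were higher in CD4SP cells in control and 21 in CKO mice. By at least 2-fold in both genotypes, 3 of the 24 were higher, against 2.91% of all genes compared. Those 3 were Tgfbr3, a TGF-β co-receptor (1.86 and 1.94), Il4ra, the interleukin 4 receptor chain (1.67 and 1.40), and Bcl2, the survival factor (1.44 and 1.22). None of these was called by limma, where 8 of the 24 had an unadjusted p below 0.05, against 2691 of all 20284 genes tested. Il7r, the receptor for interleukin 7, was at 4.67 in CD4SP and 2.67 in CD8SP control cells, and at 4.90 and 4.48 in the CKO, so the CD8SP arrays differed by more than the CKO populations did.

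On the CD8SP side, 8 genes of the CD8 lineage list were higher in CD8SP cells of both genotypes, and limma called 0 of the list (9 had an unadjusted p below 0.05). Of 13 CD8 lineage genes compared, from a list of 14, these 8 were past 2-fold in both, against 4.48% of all genes compared, and the median difference was -1.54 in control and -1.65 in CKO mice. Nkg7, a granule membrane protein of cytotoxic cells, was at 4.80 and 4.30 in CD4SP and at 6.80 and 7.59 in CD8SP cells of control and CKO mice. Crtam, an adhesion receptor of class I restricted cells, differed by -2.30 and -2.48, and Dapl1, a marker of resting CD8 cells, by -2.85 and -1.99. Neither passed the test (limma adjusted p = 0.136 and 0.264). Eomes, the T-box factor of CD8 memory and effector genes, had levels of -1.17 and 0.63 in CD8SP cells of control and CKO mice, and was not well above background in CD4SP control cells. In CD4SP CKO cells it was at -1.16. Klrd1, the CD94 receptor chain, was at 2.19 and 2.16 in CD8SP cells and at 0.65 in CD4SP control cells, and not well above background in CD4SP CKO cells, at least 53-fold lower there than in CD8SP CKO cells.

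Effector genes did not agree between genotypes. In control mice the median over 12 genes was 0.76, with 6 of 12 at least 2-fold higher in CD4SP cells (10.9% of all genes compared). In the CKO it was -1.69, with 7 of 12 at least 2-fold higher in CD8SP cells (6.59% of all genes compared). Gzmb, a granzyme, was at 1.56 in CD4SP and -0.87 in CD8SP control cells, and at -0.65 and 2.38 in the CKO. Ifng, interferon γ, was at 1.11 and -0.82 in the control and at 0.56 and 2.72 in the CKO pair. Natural killer and NKT markers were highest in CD4SP control cells. There 7 of the 9 markers measured were well above background, against 3 in CD8SP control, 3 in CD4SP CKO and 4 in CD8SP CKO cells. Their summed signal was 3.60 in CD4SP control cells and 1.85 to 2.09 on the other 3 arrays, and Klrb1c and Klra8, receptors of natural killer cells, were well above background in CD4SP control cells alone, at 1.41 and 1.54. Their part in the effector genes was not tested. Both granzyme B and interferon γ were higher in CD4SP control cells and higher in CD8SP CKO cells, and most of the turn came from the CD8SP arrays. Cxcr3, a chemokine receptor of effector cells, turned in the same way, from 1.30 to -1.19. Ccl5, a chemokine of cytotoxic cells, kept its direction, with levels of 3.88 and 4.98 in CD4SP and 5.37 and 8.25 in CD8SP cells. Gzma, a second granzyme, was at 7.82 and 7.57 in CD8SP cells and at 2.78 and 5.34 in CD4SP cells, so that its difference was -5.04 in control and -2.23 in CKO mice. Gzma was also at 5.47 and 7.71 in the DP arrays and 9.62 and 6.32 in the OT-I arrays, so this gene does not mark CD8SP cells alone here.

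Genes of the DP stage and of cell division were higher in CD8SP cells, with wide differences in control mice. All 25 cell cycle genes compared, from a list of 26, were at least 2-fold higher in CD8SP than in CD4SP control cells, and 22 of the 25 also in the CKO. Among all genes compared, 14.5% were so in control and 4.48% in both genotypes. The median difference was -3.27 in control and -1.59 in CKO mice, and 25 of 25 had a smaller difference in the CKO. Limma called 0 of them, although 24 had an unadjusted p below 0.05. Mki67, the proliferation antigen, was at 1.69 in CD4SP and 4.85 in CD8SP control cells, and at 2.57 and 4.25 in the CKO. Bub1b, a spindle checkpoint kinase, stood at -0.73 and 3.19 in control and at 0.06 and 1.88 in CKO cells. Ccnb1, cyclin B, was at 1.99 and 1.90 in CD4SP cells and at 5.60 and 3.86 in CD8SP cells of control and CKO mice. For Ccnb1 the CD4SP arrays were alike, and for all 3 genes the CD8SP CKO array lay below the CD8SP control array. In OT-I CD8SP cells Ccnb1 was at 5.72 in control and 2.08 in CKO mice, and in DP cells at 4.82 and 4.34. The median difference of the list between CD4SP and OT-I cells was -3.51 in control and -0.03 in CKO mice, and the OT-I arrays are both on slide 2.

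DP stage genes followed the same course. Of 15 compared, from a list of 16, 13 were at least 2-fold higher in CD8SP cells of control mice and 7 in both genotypes, against 14.5% and 4.48% of all genes compared. The median differences were -3.16 and -0.89. Rag1, the recombinase that rearranges TCR genes, was at 0.62 in CD4SP and 3.95 in CD8SP control cells, and at 2.88 and 3.49 in the CKO, against 8.07 and 8.09 in DP cells. Rag2 went from a difference of -3.93 to -1.65. Dntt, the polymerase that adds untemplated bases, was at 5.90 and 9.60 in control and at 6.71 and 8.70 in CKO cells. Ptcra, the surrogate α chain of immature thymocytes, was at 0.33 and 4.36 in control and at -0.74 and 2.11 in CKO cells. For Rag1 both populations differed by genotype, since it was higher in CD4SP CKO than in CD4SP control cells and lower in CD8SP CKO than in CD8SP control cells. The summed signal of the 15 genes on the array was 7.11 and 7.82 in CD4SP cells, 10.04 and 9.18 in CD8SP cells and 11.06 and 11.20 in DP cells of control and CKO mice. CD8SP cells thus lay between CD4SP and DP cells for this list. A CD8-positive gate can hold DP cells and the dividing immature cells that precede them, and their part in these differences was not tested.

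**Figure D3:**
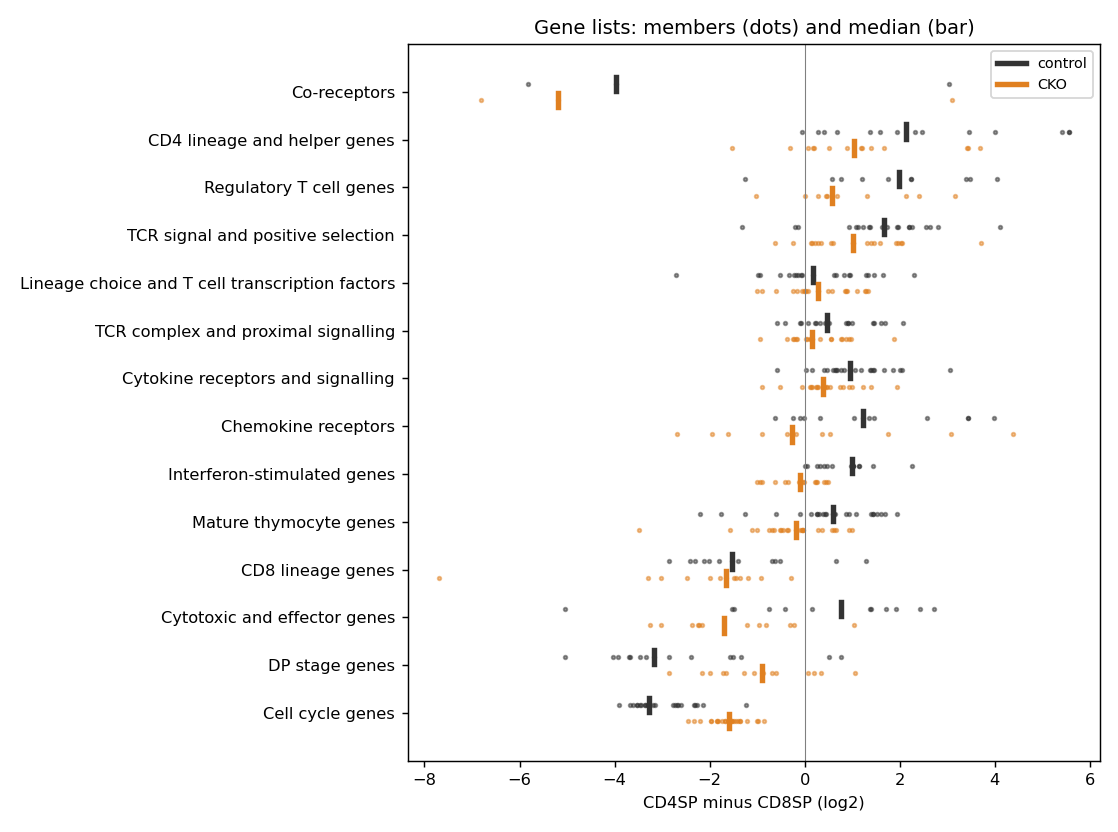
CD4SP minus CD8SP difference (log2) of the members of 14 gene lists, with 1 dot per gene, a bar at the median, control in black and CKO in orange. The median of cell cycle genes is -3.27 in control and -1.59 in CKO mice, and that of CD4 lineage and helper genes 2.13 and 1.04.

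Many genes called higher in CD8SP cells are known from CD8a-type dendritic cells, antigen-presenting cells that carry Cd8a on their surface. A list of 25 genes of this cell type was drawn up after these values were seen, and it gets no test of its own. Of 23 compared, 22 were at least 2-fold higher in CD8SP cells in both genotypes, and 15 were called, of 49 named genes called on the CD8SP side. Shares over all genes were 4.48% of those compared and 0.261% of those tested. Of the 23, 6 entered the comparison through the CD8SP arrays only, which tilts the count toward CD8SP cells. Clec9a, the receptor by which these cells take up dead cells, was at 0.20 and 0.92 in CD8SP cells and not well above background in CD4SP cells, at least 15.3-fold over both genotypes (limma adjusted p = 0.0282). Wdfy4, needed for cross-presentation, was at 4.31 and 4.80 in CD8SP and at -0.39 and -0.61 in CD4SP cells (limma adjusted p = 0.0197). Batf3, the factor on which the lineage depends, was at 1.29 and 1.61 in CD8SP cells and at -3.07 and -3.11 in CD4SP cells, with CD4SP control cells not well above background (limma adjusted p = 0.0292). Naaa, a lysosomal amidase, differed by -3.90 and -3.48, and Plbd1 by -4.35 and -5.04. MHC class II genes, a property of antigen-presenting cells, were on the same side: H2-Aa was at 1.34 and 0.68 in CD4SP and 4.44 and 4.65 in CD8SP cells (limma adjusted p = 0.044). Rab7b, Slamf8, Anpep, Gpr141b, Tspan33, Sult1a1 and Ifi211 were also called, with CD8SP levels between 0.48 and 3.12 and levels in CD4SP cells between -5.67 and -2.27.

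The summed signal of the 25 dendritic cell genes was 7.41 and 6.61 in CD4SP cells, 10.09 and 10.39 in CD8SP cells, 8.73 and 8.73 in OT-I CD8SP cells and 6.38 and 6.22 in DP cells of control and CKO mice. Of the list, 22 and 23 genes were well above background on the CD8SP arrays and 13 and 17 on the CD4SP arrays. Xcr1, another defining marker, was well above background on the CD8SP CKO array and on no other of the 4. The excess in CD8SP cells was thus present within slide 1 and in both genotypes, and it was smaller against OT-I cells, with medians of -1.72 and -2.54 against -3.60 and -4.05 for the polyclonal arrays. Since these cells carry Cd8a, dendritic cells and thymocytes share the marker of the gate, and their part in the CD8SP-high genes was not tested.

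**Figure D4:**
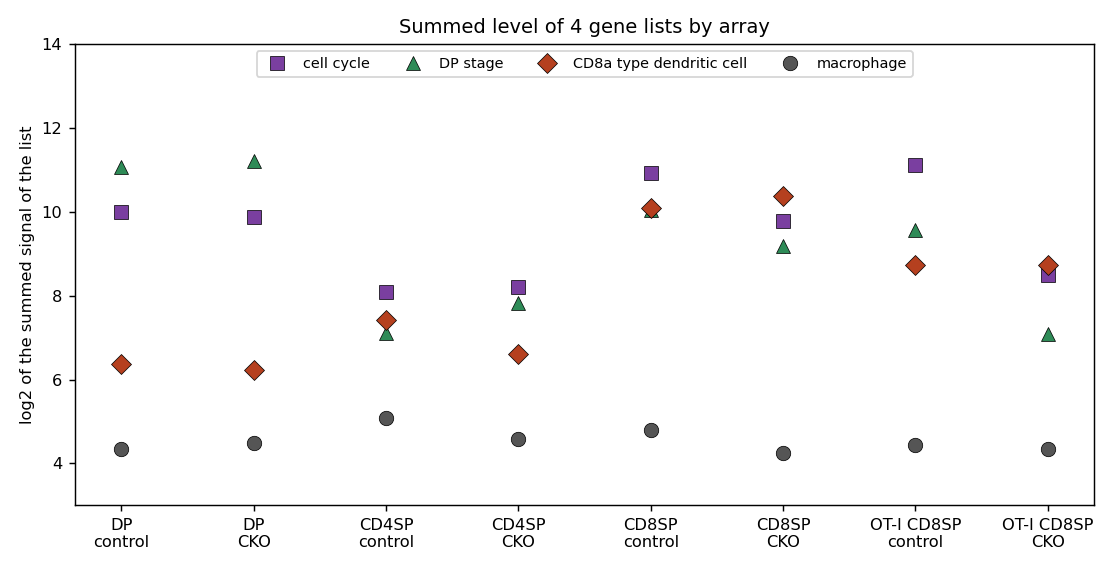
Summed signal (log2) of 4 gene lists on the DP, CD4SP, CD8SP and OT-I CD8SP arrays of control and CKO mice, with 1 point per list and array. Dendritic cell genes are highest on the 2 polyclonal CD8SP arrays (10.09 and 10.39), and cell cycle and DP stage genes are lowest on the CD4SP arrays and the OT-I CKO array.

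Macrophage genes were called on the opposite side. On a list of 17, also drawn up after the values were seen, 8 of 11 genes compared were at least 2-fold higher in CD4SP cells in both genotypes. Of the 11, 4 were called. Shares over all genes were 2.91% of those compared and 0.128% of those tested. Since 6 of the 11 were well above background on CD4SP arrays only and entered the comparison through them, this count leans to CD4SP cells by construction. C1qc, a chain of complement C1q made by macrophages, was at 1.66 and 1.07 in CD4SP cells and not well above background in CD8SP cells, at least 23.9-fold higher over both genotypes (limma adjusted p = 0.0197). C1qa (0.35 and 0.31 in CD4SP cells) and Ms4a7 (-0.42 and 0.17) were also above background in CD4SP cells only, by at least 11.6-fold and at least 8.51-fold (limma adjusted p = 0.0292 for both). On the DP arrays C1qc stood at -0.70 and -0.13, below both CD4SP arrays, and on the OT-I arrays at -5.02 and -4.92. Mertk and Cd163, other macrophage markers, were not well above background on any of the 4 arrays. The macrophage sum was 5.09 and 4.59 in CD4SP and 4.80 and 4.25 in CD8SP cells, and 11 and 13 of the 17 genes were well above background on the CD4SP arrays against 5 and 4 on the CD8SP arrays. Csf1r, a receptor of macrophages, differed by -0.20 and -0.22 on its brightest probe, and by 0.75 and -0.18 and by 1.24 and 0.33 on the other 2. The part of macrophages in the CD4SP-high genes was not tested. Of the 23 named genes called higher in CD4SP cells, 5 are on a myeloid or dendritic list, and 14 are on no list.

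Genes were counted as lineage genes where the mean of both differences was at least 2-fold, which gave 1211 genes higher in CD4SP (6.54% of those compared) and 1655 higher in CD8SP cells (8.94%). The difference shrank by at least 2-fold in the CKO for 392 of the 1211 (32.4%) and 734 of the 1655 (44.4%), and grew by at least 2-fold for 87 (7.18%) and 200 (12.1%). Over all genes compared the difference was at least 2-fold apart between genotypes for 17.3%. Most of the shrinking lay in the CD8SP arm, the pair of arrays that crosses slides. Of the 392 CD4SP-high genes that shrank, 265 were at least 2-fold higher in CD8SP CKO than in CD8SP control cells and 67 at least 2-fold lower in CD4SP CKO than in CD4SP control cells. Of the 734 CD8SP-high genes that shrank, 469 were at least 2-fold lower in CD8SP CKO than in CD8SP control cells and 150 at least 2-fold higher in the CD4SP CKO array. The CD8SP arm was the larger for 76.6% of these 734 genes and for 62.4% of all genes compared. Of the 200 CD8SP-high genes that grew, 128 were at least 2-fold lower in CD4SP CKO than in CD4SP control cells, within slide 1. At least 2-fold higher in CD8SP CKO than in CD8SP control cells were 80 of the 200. Of the 87 CD4SP-high genes that grew, 69 were at least 2-fold lower in CD8SP CKO than in CD8SP control cells. Some of these levels were not well above background.

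Among CD4SP-high genes that shrank was Penk, the precursor of enkephalin peptides. Penk was at 2.49 in CD4SP control cells and not well above background in CD8SP control cells, and at 0.43 and -0.95 in the CKO, so that at least 34.5-fold in control became a difference of 1.38. Ccr6, a chemokine receptor, was at 2.35 and -1.65 in control and at -0.29 and -0.67 in CKO cells. Its drop lay in the CD4SP arm, as did that of Akr1c18, a steroid-metabolising enzyme at 1.78 in CD4SP control and -1.38 in CD4SP CKO cells. Sdcbp2 (3.33 in control, -0.40 in CKO mice) and Cyp2s1 (2.97 and -0.52) no longer differed in the same direction, with CD8SP CKO cells at 1.06 and 0.64. Oas2, an interferon-induced enzyme, went from a difference of 2.26 to 0.13. Interferon-stimulated genes as a list showed a median difference of 0.99 in control and -0.09 in CKO mice (0.05 with the percentile over detected probes and 0.19 with quantile normalization), where 17 of 17 were higher in CD4SP control cells and 6 of 17 in CD4SP CKO cells, and limma called none (1 had an unadjusted p below 0.05). Mature thymocyte genes went from a median of 0.60 to -0.18, with 24 of 26 lower in the CKO difference. Gimap4, a GTPase of mature T cells, was at 7.08 and 5.13 in control and at 7.19 and 6.19 in CKO cells.

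CD8SP-high genes that shrank included 23 of the 25 cell cycle genes and 10 of the 15 DP stage genes, against 734 of all 18515 genes compared. Endou, a gene bright in DP cells at 7.16 and 7.57, was at 1.02 in CD4SP and 6.06 in CD8SP control cells, and at 3.13 and 5.28 in the CKO. Camkv was at -2.44 and 2.65 in control and at -0.68 and 1.25 in CKO cells, and Slc43a1, an amino acid transporter, at -1.14 and 2.81 and at 0.77 and 1.88. Fbln2 was at 1.79 in CD8SP control and -0.67 in CD8SP CKO cells, with CD4SP control cells not well above background. Espl1, separase of dividing cells, was at least 18.6-fold and Nt5dc2 at least 26.8-fold higher in CD8SP control cells, against differences of -1.49 and -2.01 in the CKO. Of these, Endou, Camkv, Slc43a1, Gzma and Rag1 were higher in CD4SP CKO than in CD4SP control cells as well as lower in CD8SP CKO cells.

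Differences that grew in the CKO were fewer. On the CD4SP side, Mr1, the presenting molecule of mucosal-associated T cells, was at -1.18 and -0.56 in control and at 2.11 and -0.66 in CKO cells, a change in the CD4SP arm alone. Apoe, a lipid carrier made by macrophages, was at 2.90 and 2.27 in control and at 3.02 and 0.40 in CKO cells. Lysmd2 and Raver2 were both lower in the CKO in CD4SP as well as CD8SP cells, and not well above background in CD8SP CKO cells. They were at least 5.09-fold and at least 5.76-fold higher in CD4SP CKO cells, log2 bounds of 2.35 and 2.53. Their control differences were 1.19 and 1.88. For Raver2 the growth by at least 2-fold thus rests on a CD8SP CKO level not well above background, and its bound does not reach it. Il17rb, an interleukin 25 receptor chain, went from 1.11 to 2.53 on its brighter probe while its other probe, at -1.89 and -1.42 in CD4SP cells, was not well above background in CD8SP cells. Actg2 differed by 1.65 and 2.99 and Eno3, a muscle enolase, by 0.75 and 1.86.

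On the CD8SP side the largest growth was in kallikrein 1 genes, tissue serine proteases encoded side by side. Klk1 was at 2.41 in CD4SP control and 0.02 in CD8SP control cells, and at 2.65 in CD8SP CKO cells and not well above background in CD4SP CKO cells. It was thus higher in CD4SP cells by 2.38 in control mice and at least 74.5-fold lower there in the CKO. Klk1b5, Klk1b24, Klk1b27 and Klk1b8 went the same way, positive by 2.39 to 2.66 in control mice and at least 28.4-fold to at least 201-fold lower in CD4SP cells of the CKO. Klk1b3 was above background on all 4 arrays, at 2.63 and 0.28 in control and at -1.87 and 2.91 in CKO cells. These genes are close copies of each other, so their probes may share signal and were not taken as separate readings, and they were also low in DP cells (Klk1 at -2.22 and -2.41). Cox6a2, a cytochrome oxidase subunit, was at 1.85 and 0.89 in control cells, at 4.31 in CD8SP CKO cells and not well above background in CD4SP CKO cells, at least 181-fold apart. Upb1, an enzyme of pyrimidine breakdown, was at 0.82 and 0.06 in control and at 1.91 in CD8SP CKO cells, at least 44.7-fold above CD4SP CKO cells.

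A list of 16 genes of plasmacytoid dendritic cells, which holds Klk1, Cox6a2, Upb1 and Spib, was drawn up after these values were seen. Since it holds the genes that prompted it, its counts are a description partly fixed by that choice. Of 15 compared, 7 were CD8SP-high genes whose difference grew, against 200 of all 18515 genes compared, and the median difference was 0.44 in control and -2.23 in CKO mice. Spib, a factor of these cells, was at 0.03 and -0.75 in control and at 1.31 in CD8SP CKO cells, with CD4SP CKO cells not well above background, and Bcl11a, another, was at -1.48 and -1.16 in control and -2.80 and 0.33 in CKO cells. The probes of Siglech, a surface receptor of the same cells, disagreed: the brighter was at 8.58 and 8.13 in control and 8.95 and 8.69 in CKO cells. The dimmer Siglech probe was at 0.52 and -0.54 in control and at 2.40 in CD8SP CKO cells, with CD4SP CKO cells not well above background, as for Cox6a2. Tlr9, a sensor of DNA, differed by 0.20 and 0.14. Fewer of the 16 genes were well above background in CD4SP CKO cells (11) than on the other 3 arrays (15 each). The part of these cells in the growth was not tested.

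Among the marker lists for cells outside the gates, fixed with the other lists, B cell genes differed by medians of 0.94 and -0.29 (5 of 9 compared), natural killer and NKT genes by 0.91 and -0.06 (4 of 10) and erythroid genes by 0.64 and -1.34 (4 of 9). Under another scaling or background correction the sign of the B cell median in control, of the natural killer median in the CKO and of the γδ T cell median in control turned. Granulocyte genes differed by 0.57 and -0.28 (5 of 9), stroma and epithelium by 0.14 and 0.20 (4 of 11) and γδ T cells by -0.16 and -0.43 (3 of 8). In the broader myeloid and dendritic list, 4 of 16 genes were CD4SP-high and 6 CD8SP-high in both genotypes, against 2.91% and 4.48% of all genes compared. Cd79b, a B cell receptor chain that DP cells also showed (3.78 and 3.80), was at 1.13 and 0.99 in CD4SP and 3.04 and 2.93 in CD8SP cells (limma adjusted p = 0.0826). Double-negative stage and Notch target genes had medians of -0.02 and -1.10 (8 of 13 compared), the first turning to 0.27 with the percentile over detected probes. Brd1 and its partner subunits differed by medians of -0.16 and -0.01 (11 of 12 compared), which turned to 0.14 and 0.13 with that percentile, and only Kat6b, a histone acetyltransferase, passed 2-fold in both genotypes, by 1.46 and 1.25.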

How the data were processed

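Each of the 9 one-colour arrays holds 1 population of thymocytes. Spot intensities were read with Agilent Feature Extraction 10.7.1.1 from array design 028005, per the file headers, and the deposited processed intensity is background-subtracted by that program. The labels' protocol describes biotin-labelled RNA on another platform, while the scanner files give Cy3. Here control spots and 144 of 55681 probes were left out, spots of a probe were averaged, and log2 intensity minus the 75th percentile of the array was used. The probe with the highest mean stood for a gene. A probe was well above background where no fewer of its spots carried the scanner's flag for it than did not.

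CD4SP and CD8SP cells were tested with limma 3.58.1 in R 4.3.3, with population and genotype as terms over all 9 arrays and Benjamini-Hochberg adjustment over 20284 genes, and checked on simulated data. Nothing says that arrays are separate mice, so p-values may measure technical spread. With 1 side not well above background, a fold is a lower bound against the lowest signal well above background, or the probe's own signal if higher.

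The members and lists were chosen with earlier results of these data known. Named were the lineage genes, up to 12 genes per direction by the smaller difference among those past 2-fold in both genotypes, up to 8 per class that shrank or grew and up to 8 called per direction. Up to 4 per list and those of opposite sign were added. Ets1, Cxcr5, Cd5, Foxp3, Nrp1, Il7r, Eomes, Mki67, Csf1r, Spib, Siglech, Tlr9, Klrb1c and Klra8 were chosen after their values were seen, as were the lists of CD8a-type dendritic cells, macrophages and plasmacytoid dendritic cells. Alternatives covered scaling, background correction, detection, probe choice, arrays in the fit, slide and the deposited series table. One result is not reported here.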

Additional observations from a re-analysis of the deposited data

Results flagged for a closer look

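Differences that point in opposite directions in control and CKO mice were singled out. Each genotype gives a single difference, and both had to be at least 2-fold with opposite signs. There were 81 such genes, 50 of them named, of which 39 were higher in CD4SP cells in control mice and 11 in CKO mice. With 1 array per group the difference between genotypes was not tested for any of them, and the CKO pair crosses slides. A change between the CD4SP arrays stays within slide 1. For Klk1, CD4SP cells went from 2.41 in control to not well above background in CKO mice, and CD8SP cells from 0.02 to 2.65.

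The change of the CD4SP minus CD8SP difference from control to CKO was -10.78 for Klk1, -10.71 for Klk1b5, -10.03 for Klk1b24 and -9.62 for Klk1b27. It was -7.45 for Klk1b8 and -7.13 for Klk1b3. For all of these but Klk1b3 the CD4SP CKO array was not well above background, so the size is not a measured fold.

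Effector genes turned the same way, by -5.46 for Gzmb and -4.09 for Ifng. For Klre1, a receptor of natural killer cells, the value was -6.95, which is not a measured size: Klre1 was well above background on only the CD4SP control and CD8SP CKO arrays, which gives at least 2.5-fold higher in CD4SP control cells and at least 3.1-fold higher in CD8SP CKO cells. The chemokine receptors Ccr2 and Cxcr3 changed by -3.09 and -2.49, and Ccr2 was not well above background in CD8SP control cells. Jchain, the joining chain of antibodies, went the other way by 3.05, from -1.33 in control to 1.72 in CKO mice.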

How the results depend on the processing

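Every one of the 79 called genes kept its direction in all planned settings in which it was tested, and 77 did with OT-I in place of polyclonal CD8SP arrays, a setting added after the data were seen. The 79 were chosen for large differences on arrays that these settings reuse, so their direction could hardly turn and is no separate support. Which genes were called, and how many, was less stable than the direction. With quantile normalization 56 of 65 genes called were among the 79, with normexp 32 of 62 and with OT-I arrays 39 of 164. Against 26 genes higher in CD4SP and 53 higher in CD8SP cells, limma called 8 and 7 with the 75th percentile over probes detected on all arrays (15 genes, all among the 79). It called 86 on the CD8SP side with no detection filter and 81 with genes detected on at least 2 of the 4 arrays. It called 46 and 99 without the OT-I arrays and 275 and 752 on slide 1 alone, where 1 residual degree of freedom was left, and 128 on the CD4SP side with OT-I in place of polyclonal CD8SP arrays. It called 0 and 0 with the 4 arrays alone, without the DP arrays and with slide as a block, and in each of the 4 fits without 1 array (range 0 to 0 on both sides). Residual degrees of freedom were 1 with the 4 arrays alone and 2 in the rest of those fits, against 3 in the fit reported. The fit without the OT-I arrays, which gave calls, also had 2, and slide 1 alone had 1. Why these fits differ in their calls was not tested. Of the genes called, 53.3% were higher in CD4SP cells with the percentile over detected probes and 78% with OT-I arrays, against 32.9% as reported.

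Past 2-fold in both genotypes, the count higher in CD4SP cells was 836 with the percentile over detected probes, 145 with normexp, 261 with detection on all 4 arrays and 95 at 4-fold. The count higher in CD8SP cells was 402 with normexp, 233 at 4-fold and 273 with OT-I arrays. With normexp 26.5% of both were higher in CD4SP cells. Past 2-fold in control mice only were 1643 genes with normexp, 4937 with no detection filter and 910 at 4-fold. In CKO mice only there were 276, 2609 and 258, and 411 with detection on all 4 arrays. In all 8 settings that give both counts, the count in control mice only was above that in CKO mice only.

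Genes that shrank on the CD4SP side numbered 663 with the percentile over detected probes, 50 with normexp, 593 with no filter, 138 with detection on all 4 arrays and 79 at 4-fold. On the CD8SP side 372 shrank with normexp and 128 at 4-fold. Genes that grew numbered 7 and 70 (CD4SP and CD8SP side) with normexp, 281 and 472 with no filter, 11 and 90 with detection on all 4 arrays and 28 and 96 at 4-fold.

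The mean difference of 10 named genes changed sign. With slide as a block or without the CD8SP CKO array, which is the same fit, it was 0.18 for Klk1b27, 0.90 for Klk1b3 and 1.01 for Klk1b8. On slide 1 alone it was 0.39 for Klk1, 0.68 for Klk1b24, 1.07 for Klk1b27, 1.5004 for Klk1b3, 0.50 for Klk1b5, 1.65 for Klk1b8 and 0.62 for S100a8. Leaving out 1 of the 4 arrays at a time, it ranged from -7.75 to 1.73 for Klk1, -6.77 to 1.51 for Klk1b24, -6.23 to 1.94 for Klk1b27, -3.85 to 1.42 for Klk1b3, -7.56 to 1.82 for Klk1b5, -3.96 to 1.76 for Klk1b8 and -6.61 to 0.080 for Cox6a2. For these 7 the positive end is without the CD4SP CKO array. The range was -0.73 (without CD4SP CKO) to 2.88 for Mr1 and -0.067 (without CD8SP control) to 2.52 for Cyp2s1. The cause was not tested. No paired analysis was possible because each group is 1 array and replicate numbers pair nothing; the reported fit compares populations within genotype through its genotype term, without which 85 genes were called. The number of arrays limits the precision, and dim probes have only a bound.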
